A study of Mus musculus with 12 samples.

Results

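The 9 genes described here, namely Otof, Cacna1d, Cacnb2, Cabp2, Slc17a8, Bsn, Pclo, Rims2 and Ctbp2, encode proteins of the inner hair cell ribbon synapse, and they were picked by gene symbol from the 55348 genes counted in the mouse organ of Corti, with earlier results of these data known. RNA was sequenced at postnatal day 21 (P21) in 4 genotypes, with 3 libraries each and 12 in all. Clrn1-/- mice lacked clarin-1 through a constitutive deletion of exon 4 driven by PGK-cre. Clrn2-/- mice carried the clarinet nonsense mutation in both copies of Clrn2 and lacked clarin-2. Clrn1-/-Clrn2-/- mice came from crossing both lines, and wild-type mice carried neither mutation. According to the paper, the wild-type mice used beside total knockouts came from breedings of their own and not from the same litters. The effect of a genotype therefore cannot be told apart here from that of its breeding line. Both knockouts are total, so every cell of the animal lacked the protein, and the stria vascularis and the modiolus were removed at dissection. The sources used here do not say whether each library came from a separate animal, so the p-values below measure the spread between these libraries, which may be partly technical.

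Inner hair cells are the sensory cells of the cochlea that signal to the auditory nerve. Sound opens mechanically gated channels in their hair bundles, the cell depolarizes, and calcium enters through L-type channels clustered beneath an electron-dense body, the synaptic ribbon, which holds glutamate-filled vesicles ready for release. Cacna1d encodes the pore-forming subunit of that channel and Cacnb2 an accessory subunit of it. Cabp2 encodes a calcium-binding protein that limits channel inactivation, Otof encodes otoferlin, the calcium sensor of vesicle fusion in these cells, and Slc17a8 encodes the transporter that loads glutamate into vesicles. Bassoon (Bsn) anchors the ribbon, piccolo (Pclo) is a related large scaffold protein, Rims2 encodes an active zone protein that gathers calcium channels, and Ctbp2 encodes RIBEYE, the main component of the ribbon, as well as the transcriptional corepressor CtBP2. Several of these proteins are also made by neurons and other cells. The study asked how loss of clarin-1, of clarin-2 or of both alters the cochlea. The RNA of these genes is compared below between wild-type and every mutant and between mutants. The difference of the double mutant from wild-type is also set beside the sum of those of the single mutants.

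Each level is a CPM value, in which a gene's counts are divided by the library total after TMM scaling, or an RPKM value, which is also per kilobase of exons, where genes are compared with each other. The libraries held 30008679 to 41049302 counts on genes, and the 9 genes were each represented by at least 310 counts in every library, so all 9 passed the filter on low counts together with 19052 genes in all. A gene is called higher or lower below where the p of edgeR's quasi-likelihood test, adjusted by Benjamini and Hochberg's method over all genes tested, did not exceed 0.05 and the fold change reached 1.5. Genes that met the adjusted p but not the fold minimum are named as such. Clrn1 itself lay at 23.8 to 28.6 CPM in the wild-type libraries, at 2.69 to 3.04 CPM in the Clrn1-/- libraries and at 1.77 to 2.71 CPM in the double mutant libraries. Clrn2, whose mutation leaves the gene in place, lay at 1.89 to 3.24 CPM in wild-type, 1.04 to 1.38 CPM in Clrn2-/-, 0.921 to 1.18 CPM in the double mutant and 0.854 to 1.04 CPM in Clrn1-/-.

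The tissue held hair cells and much else. Summed CPM over 14 hair cell markers was 818 to 919 in wild-type, against 15000 to 16500 for 20 neuronal markers, 2930 to 3230 for 14 supporting cell markers and 653 to 994 for 8 markers of the stria vascularis, while 7 skeletal muscle markers summed to 3.07 to 4.27. The 9 ribbon synapse genes together made up 422 to 446 CPM in wild-type. In bulk tissue, fewer cells of a type and less RNA per cell cannot be told apart. Several marker sums moved with genotype. The neuronal sum was 10700 to 10900 in the double mutant, a difference of -31% from the wild-type mean, and the supporting cell sum was 4330 to 4670, a difference of 47.4%. The red blood cell sum was 700 to 1140 in wild-type, 278 to 379 in Clrn1-/-, 426 to 642 in Clrn2-/- and 535 to 714 in the double mutant. The fibroblast sum was 8180 to 10100 in wild-type, 6210 to 6810 in Clrn1-/-, 6070 to 6510 in Clrn2-/- and 8380 to 9710 in the double mutant. Coch and Otos made up most of this sum. Coch had means of 5380 CPM in wild-type, 3530 in Clrn1-/- and 3450 in Clrn2-/-, and Otos 1770, 691 and 809 CPM. The median log2 fold change over the 8 fibroblast markers was 0.21 in Clrn1-/-, where Col3a1 and Lum were called higher, and 0.04 in Clrn2-/-. The macrophage sum was 135 to 174 in wild-type, 207 to 220 in Clrn1-/-, 157 to 197 in Clrn2-/- and 214 to 249 in the double mutant.

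Per kilobase of exons, Otof had the highest RNA level of the 9 genes in wild-type, with 12.6 ± 1.4 RPKM (SD, n = 3). Cabp2 followed with 8.32 ± 0.603 RPKM and Slc17a8 with 6.21 ± 0.63 RPKM. The next 3 genes lay close together, Cacna1d with 4.49 ± 0.103 RPKM, Ctbp2 with 4.33 ± 0.071 RPKM and Bsn with 4.1 ± 0.127 RPKM, and the first pair of these differed by less than the sum of their SDs. Cacnb2 had 3.44 ± 0.14 RPKM and Rims2 3.35 ± 0.231 RPKM, again within their spread, and Pclo was lowest with 2.86 ± 0.116 RPKM. The 3 genes at the top of this order encode the calcium sensor of fusion, the channel modulator and the glutamate transporter, and Bsn, Rims2 and Pclo were among the lowest 4.

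**Figure D1:**
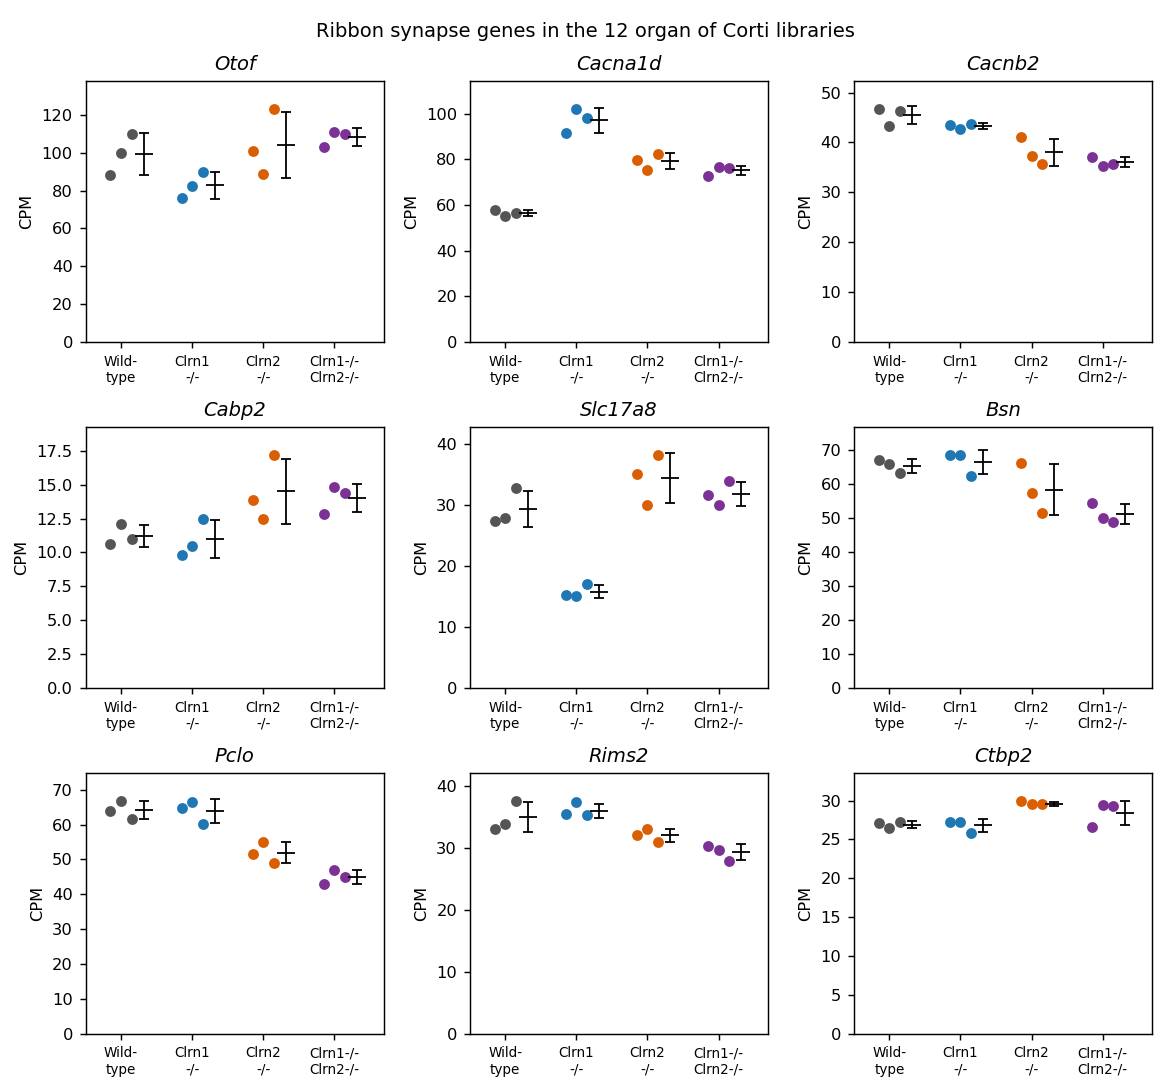
Each panel shows 1 of the 9 genes, with CPM on the vertical axis from 0 and the 4 genotypes on the horizontal axis. Points are libraries and the black bar beside them is the mean with its SD (n = 3). Slc17a8 lies at 15 to 17 CPM in Clrn1-/- and at 27.3 CPM or more in the other 9 libraries, and Cacna1d lies above the wild-type libraries in all 3 mutants.

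Of the 9 genes, Cacna1d rose and Slc17a8 fell in Clrn1-/-, and the other 7 did not pass the test. In Clrn2-/- and in the double mutant no gene of the 9 reached both thresholds by edgeR, limma-voom or DESeq2, but 4 and 6 of them passed edgeR's adjusted p with smaller changes, and 8 and 6 had an unadjusted p under 0.05. At least 5033 of all 19052 genes had such an unadjusted p in Clrn2-/-, and at least 37% in the double mutant. Cacna1d was higher than wild-type in all 3 mutants, the glutamate transporter gene was lower in Clrn1-/- and not in the double mutant, and the scaffold genes Bsn, Pclo and Rims2 were lowest in the double mutant.

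The share of called genes gives the background for these counts. In Clrn1-/- 7.22% of all genes tested were called and 2 of the 9 ribbon synapse genes were, and 26.9% of all genes passed the adjusted p alone, as did the same 2. In Clrn2-/- 2.66% of all genes and none of the 9 were called, whereas 14.2% of all genes and 4 of the 9 passed the adjusted p. In the double mutant 9.9% of all genes and none of the 9 were called, and 37% of all genes and 6 of the 9 passed the adjusted p. The 3 libraries lay wholly above or wholly below the wild-type libraries for 2 of the 9 genes in Clrn1-/-, 6 in Clrn2-/- and 6 in the double mutant, against 40.2%, 29% and 48.2% of all genes. The median log2 fold change over the 9 genes was -0.01 in Clrn1-/-, 0.07 in Clrn2-/- and 0.08 in the double mutant, beside -0.003, -0.002 and 0.001 over all genes tested. The ribbon synapse genes therefore held genes that were higher and genes that were lower in each mutant, and these 3 comparisons share the wild-type libraries.

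**Figure D2:**
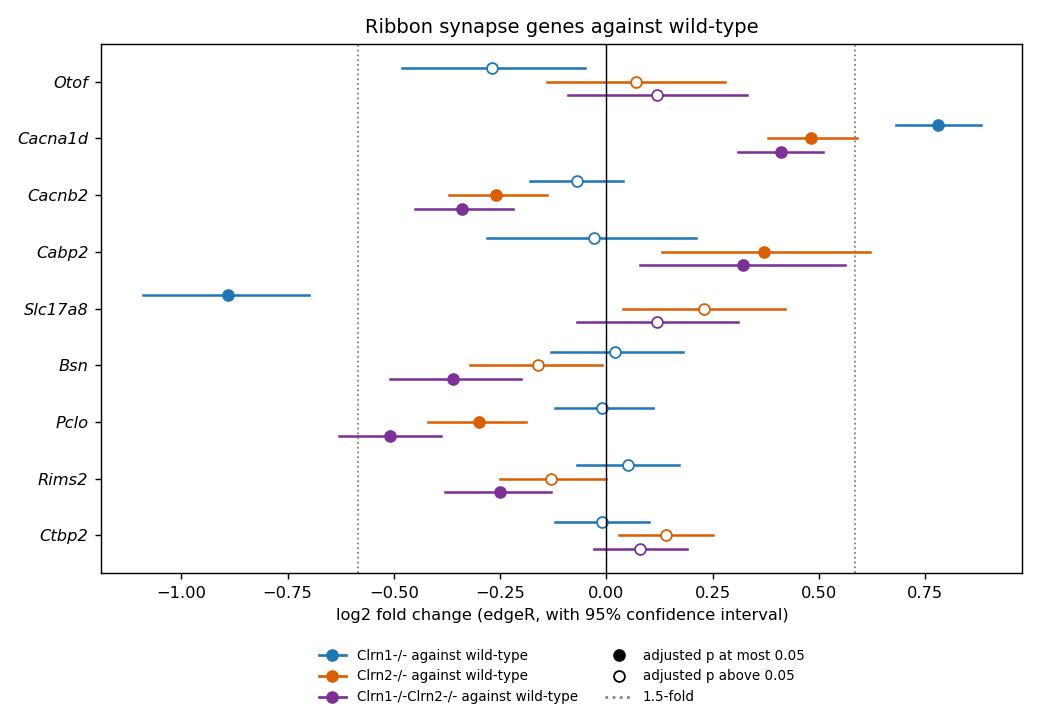
Log2 fold change of each gene against wild-type on the horizontal axis, with its 95% confidence interval as a line and 1 colour per mutant genotype (3 libraries against 3). Filled points had an adjusted p of at most 0.05, and dotted lines mark 1.5-fold. Cacna1d at 0.78 and Slc17a8 at -0.89, both in Clrn1-/-, are the only filled points beyond the dotted lines.

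Slc17a8 (chr10:89574020-89621253, minus strand, GRCm38) showed the largest difference of the 9 genes. The wild-type libraries had 27.3, 27.9 and 32.7 CPM and the Clrn1-/- libraries 15.3, 15 and 17 CPM. All 3 Clrn1-/- libraries thus lay below every library of the other genotypes. The log2 fold change in Clrn1-/- was -0.89 ± 0.093 (SE; edgeR adjusted p = 4.74e-06), which is 0.538 times the wild-type level. The Clrn2-/- libraries had 35, 29.9 and 38.2 CPM and the double mutant libraries 31.6, 29.9 and 33.9 CPM. Both groups overlapped the wild-type range, and Slc17a8 did not pass the test in either, with log2 fold changes of 0.23 (95% CI 0.04 to 0.42; edgeR adjusted p = 0.0978) and 0.12 (95% CI -0.07 to 0.31; edgeR adjusted p = 0.336). In Clrn2-/- it passed the adjusted p, though not the fold minimum, in 5 of 20 alternatives, among them library size alone and the replicate block.

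The direct comparisons between mutants were as large as that with wild-type. The Slc17a8 level in Clrn1-/- was 0.459 times that of Clrn2-/- (log2 fold change -1.12, edgeR adjusted p = 5.63e-07) and 2.01 times as high in the double mutant as in Clrn1-/- (log2 fold change 1.01, edgeR adjusted p = 9.4e-07). The change in the double mutant differed from the sum of the changes in the single mutants by 0.78 ± 0.13 on the log2 scale (SE; edgeR interaction, adjusted p = 0.000626). Slc17a8 was thus lower without clarin-1 and not lower when clarin-2 was missing as well. Summed hair cell markers lay at 777 to 857 CPM in Clrn1-/- and 720 to 751 CPM in the double mutant, differences of -7.66% and -15.3% from the wild-type mean. Pvalb, which neurons also express, made up most of this sum and was lower in both, and the other 13 markers summed to 289 to 330 CPM in wild-type, 317 to 357 in Clrn1-/- and 340 to 352 in the double mutant. Of 8 inner hair cell markers outside the 9 genes, Calb2 likewise made up most of the sum, and the other 7 summed to 384 to 412 CPM in wild-type, 384 to 389 in Clrn1-/-, 375 to 415 in Clrn2-/- and 393 to 412 in the double mutant. Without these dominant genes neither sum was lower than wild-type in Clrn1-/- beyond the overlap of libraries. Single markers went both ways there. At edgeR's adjusted p, 2 of the 14 hair cell markers were higher and 3 lower, among the latter Gfi1 (log2 fold change -0.92) and Myo15 (-0.43, edgeR adjusted p = 0.0102). Of the 8 inner hair cell markers, 2 were higher and 3 lower, Dnajc5b with -2.11 among the latter. The part of hair cell number in the Slc17a8 values was not tested.

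The 250 bases before the upstream 1 of 2 listed start sites of Slc17a8 are shown because the gene had the largest change of the 9. They lie at chr10:89621250-89621499 on the minus strand (RefSeq, GRCm38.p6), and all but 4 of them are outside annotated exons. Capitals mark CANNTG, the E-box read by basic helix-loop-helix factors such as ATOH1, searched on both strands.

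Slc17a8: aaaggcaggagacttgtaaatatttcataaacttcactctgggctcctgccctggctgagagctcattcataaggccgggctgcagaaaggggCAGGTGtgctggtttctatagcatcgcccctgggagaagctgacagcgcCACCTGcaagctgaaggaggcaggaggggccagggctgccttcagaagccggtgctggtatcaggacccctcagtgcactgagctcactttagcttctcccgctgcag

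This stretch holds 2 E-boxes and has a GC content of 57.2%, and the stretch before the second start site holds 1 E-box. Of 32841 such stretches before mouse start sites, 66.2% hold at least 1 E-box, and 9 of the 12 stretches listed for 7 of the ribbon synapse genes do, so the match is common and describes the sequence only.

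Cacna1d (chr14:30039939-30491455, minus strand) moved in the opposite direction. The wild-type libraries had 58, 55.4 and 56.5 CPM, the Clrn1-/- libraries 91.3, 102 and 98.1 CPM, the Clrn2-/- libraries 79.6, 75.4 and 82.4 CPM and the double mutant libraries 72.7, 76.7 and 76 CPM. Every mutant library lay above every wild-type library, and every Clrn1-/- library above every Clrn2-/- and double mutant library. The gene rose 1.72-fold in Clrn1-/- (log2 fold change 0.78 ± 0.048, edgeR adjusted p = 1.55e-08). It was 1.4-fold higher in Clrn2-/- (log2 0.48 ± 0.049, edgeR adjusted p = 1.24e-05) and 1.33-fold higher in the double mutant (log2 0.41 ± 0.049, edgeR adjusted p = 7.01e-06), both below the fold minimum.

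Cacna1d lay above wild-type by less in the double mutant than in Clrn1-/-. The double mutant was 0.774 times as high as Clrn1-/- (log2 -0.37, edgeR adjusted p = 2.6e-05), whereas the double mutant and Clrn2-/- overlapped (log2 -0.07, 95% CI -0.18 to 0.03, edgeR adjusted p = 0.281). The interaction was -0.85 ± 0.068 on the log2 scale (SE; edgeR adjusted p = 1.24e-06), so the changes in the single mutants did not add up. Cacna1d shares 589 exon bases, 4.7% of its exons, with Chdh on the opposite strand. Counts of the opposite strand came to 13.7% of both strands over Cacna1d, against 0.243% to 1.92% for the other 8 genes. The log2 fold change of Chdh against wild-type was -0.21 in Clrn1-/- (edgeR adjusted p = 0.0183), 0.07 in Clrn2-/- (edgeR adjusted p = 0.499) and 0.4 in the double mutant (edgeR adjusted p = 0.000101). The counts used here are those of the Cacna1d strand, and the part of Chdh in them was not tested.

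The sequence before the upstream start site of Cacna1d is given beside that of Slc17a8 because these genes changed in opposite directions in the same libraries. It lies at chr14:30491157-30491406 on the minus strand (RefSeq, GRCm38.p6), within an annotated exon, and capitals mark TATAAA on either strand.

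Cacna1d: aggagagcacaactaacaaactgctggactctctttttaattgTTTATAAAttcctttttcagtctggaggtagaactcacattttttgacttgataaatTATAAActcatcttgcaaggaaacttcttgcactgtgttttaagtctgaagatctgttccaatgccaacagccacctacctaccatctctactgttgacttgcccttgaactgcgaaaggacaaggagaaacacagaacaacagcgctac

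The stretch has a GC content of 39.6% and holds 3 matches to TATAAA, 2 of which overlap on opposite strands. Among all 32841 stretches 12.4% hold this motif. CANNTG does not occur in these 250 bases. The stretch before the second start site of Cacna1d holds 1 CANNTG and has a GC content of 86.4%. A search of letters says nothing of which factors act there.

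Cacnb2, the accessory subunit gene, did not follow the pore-forming subunit. The wild-type libraries had 46.7, 43.3 and 46.3 CPM and the Clrn1-/- libraries 43.5, 42.6 and 43.7 CPM, which overlapped (log2 fold change -0.07, 95% CI -0.18 to 0.04, edgeR adjusted p = 0.354). The Clrn2-/- libraries had 41, 37.3 and 35.7 CPM and the double mutant libraries 37.1, 35.3 and 35.6 CPM, all below wild-type. Cacnb2 was 0.837 times the wild-type level in Clrn2-/- (edgeR adjusted p = 0.00439) and 0.792 times in the double mutant (edgeR adjusted p = 0.000125). Neither difference reached 1.5-fold. Cacnb2 shares 618 exon bases, 4.7% of its exons, with Gm10849 on the opposite strand.

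Cabp2, the channel modulator, was the gene with the fewest counts. The wild-type libraries had 10.6, 12.1 and 11 CPM, the Clrn1-/- libraries 9.81, 10.5 and 12.5 CPM, the Clrn2-/- libraries 13.9, 12.5 and 17.2 CPM and the double mutant libraries 12.8, 14.8 and 14.4 CPM. The Clrn2-/- and double mutant libraries lay above wild-type, and the Clrn1-/- libraries overlapped it. Cabp2 was 1.3-fold higher in Clrn2-/- (edgeR adjusted p = 0.0397) and 1.25-fold higher in the double mutant (edgeR adjusted p = 0.0384), with intervals of 0.13 to 0.62 and 0.08 to 0.56 on the log2 scale. Leaving out any 1 of wild-type replicates 1 and 3 or Clrn2-/- replicate 3, or fitting only the libraries of this comparison, raised the first p above 0.05, to at most 0.184. Leaving out any 1 of wild-type replicates 1 and 3, Clrn1-/- replicate 2 or double mutant replicates 2 and 3 did so for the second, to at most 0.134. Over the 12 libraries Cabp2 tracked the summed CPM of 10 outer hair cell markers, which was 11.2% higher in Clrn2-/- and 18.4% higher in the double mutant than in wild-type. Pearson's r was 0.92, and 0.93 for deviations from the genotype means, between values that share library and scaling. The part of these cells in the Cabp2 values was not tested.

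Otof (chr5:30367062-30461932, minus strand) did not pass the test against wild-type in any mutant. The wild-type libraries had 88, 100 and 110 CPM, the Clrn1-/- libraries 75.9, 82.4 and 89.8 CPM, the Clrn2-/- libraries 101, 88.9 and 123 CPM and the double mutant libraries 103, 111 and 110 CPM. Every mutant group overlapped wild-type. The log2 fold change was -0.27 in Clrn1-/- (95% CI -0.48 to -0.05, edgeR adjusted p = 0.0601), 0.07 in Clrn2-/- (95% CI -0.14 to 0.28, edgeR adjusted p = 0.706) and 0.12 in the double mutant (95% CI -0.09 to 0.33, edgeR adjusted p = 0.385). In Clrn1-/- against wild-type, Otof passed the adjusted p in 8 of 20 alternatives, among them both other filters and only the genotypes compared. With the replicate number as a block, the log2 fold change of Otof, Clrn1-/- against wild-type, was -0.26 with an edgeR adjusted p of 0.0132. Over the 20 alternatives the log2 fold change ranged from -0.34 to -0.19, still below 1.5-fold. Otof was higher in the double mutant than in Clrn1-/- (1.31-fold, edgeR adjusted p = 0.00783), and these libraries did not overlap. Otof and Slc17a8 hence had their lowest mean in the same genotype, and the interval of Otof there reached to -0.48, against an estimate of -0.89 for Slc17a8.

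The scaffold genes were near the wild-type level in Clrn1-/- and lowest in the double mutant. Pclo had 63.9, 66.9 and 61.7 CPM in wild-type and 64.9, 66.6 and 60.2 CPM in Clrn1-/-, which overlapped. It had 51.7, 55.1 and 49.1 CPM in Clrn2-/- and 42.9, 47 and 45 CPM in the double mutant, where each group lay below all libraries of the group before it. Pclo was 0.81 times the wild-type level in Clrn2-/- (edgeR adjusted p = 0.00151) and 0.701 times in the double mutant (log2 fold change -0.51 ± 0.055, edgeR adjusted p = 2.65e-06), the largest difference of the 9 genes in that mutant. It was also the only one of the 9 that passed the adjusted p between the double mutant and Clrn2-/- (0.866 times, edgeR adjusted p = 0.0114). Without Clrn2-/- replicate 2 that p was 0.0508.

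Bsn had 67, 65.7 and 63.1 CPM in wild-type, 68.5, 68.4 and 62.2 CPM in Clrn1-/-, 66.2, 57.3 and 51.5 CPM in Clrn2-/- and 54.4, 49.9 and 48.8 CPM in the double mutant. The Clrn2-/- libraries spread widely and overlapped wild-type, and the double mutant libraries lay below it. Bsn was 0.781 times the wild-type level in the double mutant (log2 fold change -0.36, edgeR adjusted p = 0.00123). Rims2 had 33.1, 33.9 and 37.6 CPM in wild-type, 35.5, 37.3 and 35.3 CPM in Clrn1-/-, 32, 33 and 31 CPM in Clrn2-/- and 30.3, 29.7 and 27.8 CPM in the double mutant. It was 0.839 times the wild-type level there (log2 fold change -0.25, edgeR adjusted p = 0.00245). In Clrn2-/- Rims2 also lay below wild-type in every library, but the log2 fold change of -0.13 (95% CI -0.25 to 0) had an edgeR adjusted p of 0.166.

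These 3 genes and Cacnb2 are also expressed by neurons, and the neuronal markers were lower in the same genotype. Of 20 neuronal markers, 16 were lower and 2 higher in the double mutant at the adjusted p, with a median log2 fold change of -0.4. Over the 12 libraries the correlation with the neuronal sum was 0.8 for Bsn, 0.82 for Pclo, 0.8 for Rims2 and 0.82 for Cacnb2, and within genotypes it was 0.36, -0.14, 0.45 and 0.59. Per 1000 counts on the neuronal markers, a ratio formed after the values were seen, Pclo stood at 4.1 ± 0.329 in wild-type and 4.16 ± 0.187 in the double mutant. The same ratio was 4.18 ± 0.332 and 4.72 ± 0.318 for Bsn, 2.22 ± 0.0414 and 2.71 ± 0.152 for Rims2 and 2.91 ± 0.178 and 3.33 ± 0.118 for Cacnb2. None of the 4 means was lower in the double mutant on that scale. The neuronal sum itself differed by -31% there, more than any of these 4 genes, so the ratio had to rise. It also rose for Ctbp2, from 1.72 ± 0.0747 to 2.63 ± 0.129, and cannot show where the RNA came from. In Clrn2-/- the ratio was 3.68 ± 0.286 for Pclo and 2.69 ± 0.0271 for Cacnb2, both below the wild-type means, and 4.11 ± 0.271 for Bsn and 2.26 ± 0.141 for Rims2. Which cells these RNAs came from was not tested.

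Ctbp2, the ribbon gene, stayed within 0.14 of wild-type on the log2 scale in all 3 mutants and passed the test in none. The wild-type libraries had 27.1, 26.5 and 27.3 CPM, the Clrn1-/- libraries 27.3, 27.3 and 25.8 CPM, the Clrn2-/- libraries 30, 29.5 and 29.5 CPM and the double mutant libraries 26.6, 29.4 and 29.3 CPM. The Clrn2-/- libraries lay above wild-type, and the other groups overlapped it. The log2 fold changes were -0.01 (95% CI -0.12 to 0.1) in Clrn1-/-, 0.14 (95% CI 0.03 to 0.25) in Clrn2-/- and 0.08 (95% CI -0.03 to 0.19) in the double mutant, with edgeR adjusted p of 0.935, 0.0931 and 0.27. The counts of this gene add transcripts for RIBEYE to those for the widely expressed corepressor, and 314 exon bases, 5% of its exons, are shared with Fgfr2 on the same strand, so the ribbon protein's own RNA was not measured.

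Between the single mutants, 1 of the 9 genes was called, Slc17a8, against 4.73% of all genes, and 7 of the 9 passed the adjusted p, against 18.5%. Relative to Clrn2-/-, Clrn1-/- had lower Otof (0.793 times, edgeR adjusted p = 0.0285), Cabp2 (0.755 times, edgeR adjusted p = 0.0221) and Slc17a8. It had higher Cacna1d (1.23-fold, edgeR adjusted p = 0.000494), Cacnb2 (1.14-fold, edgeR adjusted p = 0.0256), Pclo (1.23-fold, edgeR adjusted p = 0.00141) and Rims2 (1.13-fold, edgeR adjusted p = 0.0452). The libraries of both genotypes overlapped for Otof and Cabp2 and did not overlap for 6 of the 9 genes, against 34.6% of all genes. Rims2 missed the adjusted p in 14 of 20 alternatives, among them DESeq2, both other filters, only the genotypes compared and the replicate block, and Otof missed it under DESeq2. Without Clrn1-/- replicate 1, Clrn1-/- replicate 2 or Clrn2-/- replicate 3, only 3 of the 7 remained, in each case Cacna1d, Slc17a8 and Pclo.

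Between the double mutant and Clrn1-/-, 1 of the 9 genes was called, again Slc17a8, against 7.23% of all genes, and 8 of the 9 passed the adjusted p, against 30.4%. Otof, Cabp2 (1.28-fold, edgeR adjusted p = 0.0289) and Slc17a8 were higher in the double mutant. Cacna1d, Cacnb2 (0.832 times, edgeR adjusted p = 0.00133), Bsn (0.769 times, edgeR adjusted p = 0.000951), Pclo (0.704 times, edgeR adjusted p = 5.35e-06) and Rims2 (0.811 times, edgeR adjusted p = 0.000801) were lower. For these 8 genes the libraries of both genotypes did not overlap, against 45.9% of all genes. Cabp2 missed the adjusted p without Clrn1-/- replicate 1 or 2 or double mutant replicate 2 or 3, with values up to 0.125. Between the double mutant and Clrn2-/-, none of the 9 was called, against 5.1% of all genes, and Pclo alone passed the adjusted p, against 27.6%. An unadjusted p under 0.05 was found for 3 of the 9 and for at least 6922 of all 19052 genes, while limma-voom and DESeq2 also called none of the 9. The interaction was called for 2 of the 9, Cacna1d and Slc17a8, against 5.5% of all genes, and the same 2 passed the adjusted p alone, against 17.4%. For the other 7 the interaction ranged from -0.22 for Bsn (95% CI -0.44 to 0) to 0.31 for Otof (95% CI 0.02 to 0.61, edgeR adjusted p = 0.143).

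The other genes of the synapse were followed in 4 lists. Of the 84 tested genes of these lists together, 4.76% were called in Clrn1-/-, 0% in Clrn2-/- and 13.1% in the double mutant, beside 7.22%, 2.66% and 9.9% of all genes. At edgeR's adjusted p alone the shares were 50%, 35.7% and 79.8%, beside 26.9%, 14.2% and 37%. The 11 genes called in the double mutant were all lower. Of 16 tested genes of the ribbon and active zone scaffold, 1 was called higher in Clrn1-/-, none in Clrn2-/- and 2 lower in the double mutant. At the adjusted p alone, 3 were higher and 1 lower in Clrn1-/-, 1 higher and 6 lower in Clrn2-/-, and 3 higher and 8 lower in the double mutant. Rims3, a short relative of Rims2, rose in Clrn1-/- by 0.61 on the log2 scale (137 to 151 CPM in wild-type and 214 to 232 CPM in Clrn1-/-, edgeR adjusted p = 2.06e-06). Unc13a, a vesicle priming factor, fell in the double mutant with -0.76 (edgeR adjusted p = 1.05e-08), as did Rims1 with -0.62 (edgeR adjusted p = 1.07e-06).

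Of 16 tested calcium channel subunits and calcium sensors, none was called in either single mutant and 2 were lower in the double mutant. At the adjusted p alone, 4 were higher and 8 lower in Clrn1-/-, 1 higher and 3 lower in Clrn2-/-, and 2 higher and 11 lower in the double mutant. The accessory subunit gene Cacnb3 fell in the double mutant, with -0.62 on the log2 scale (edgeR adjusted p = 3.45e-07), and Calb2, which encodes the calcium buffer calretinin, with -0.73 (edgeR adjusted p = 3.33e-06). Calb2 lay at 2650 to 3060 CPM in wild-type and 1580 to 1760 CPM in the double mutant. It is also on the list of inner hair cell markers.

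Of 31 tested genes of vesicle fusion and transport, 2 were called higher and 1 lower in Clrn1-/-, none in Clrn2-/-, and 6 lower in the double mutant. At the adjusted p alone, 7 were higher and 11 lower in Clrn1-/-, 1 higher and 10 lower in Clrn2-/-, and 7 higher and 19 lower in the double mutant. In Clrn1-/- Cplx2, a complexin that clamps and aids fusion, rose by 0.82 on the log2 scale (17 to 18.2 CPM in wild-type and 28.1 to 33.7 CPM in Clrn1-/-, edgeR adjusted p = 1.98e-06). The vesicle glycoprotein gene Sv2b rose with 0.69 (edgeR adjusted p = 1.1e-07), and Rab3b, a vesicle GTPase gene near 1 CPM, fell with -0.82 (edgeR adjusted p = 0.019). In the double mutant Sv2c fell with -1.1 (213 to 242 CPM in wild-type and 99.7 to 113 CPM in the double mutant, edgeR adjusted p = 3.95e-09). Slc17a6, the neuronal relative of Slc17a8, fell with -0.87 (edgeR adjusted p = 1.28e-09), and Snap25, a fusion protein of neurons that is also among the neuronal markers, with -0.73 (edgeR adjusted p = 7.39e-08). Slc17a6 and Slc17a8 differed here, since Slc17a8 in the double mutant overlapped wild-type.

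Of 21 tested genes of vesicle retrieval and otoferlin handling, none was called in either single mutant and 1 was lower in the double mutant, Sh3gl2, an endophilin of vesicle retrieval (log2 fold change -0.61, edgeR adjusted p = 3.14e-08). At the adjusted p alone, 2 were higher and 6 lower in Clrn1-/-, 1 higher and 7 lower in Clrn2-/-, and 5 higher and 12 lower in the double mutant. The median log2 fold change in the double mutant was -0.23 for the scaffold list, -0.26 for the calcium list, -0.38 for the fusion list and -0.18 for the retrieval list, beside 0.08 for the 9 ribbon synapse genes and 0.001 over all genes. Snap25 is not the only neuronal gene in these lists, and the part of the lower neuronal markers in these values was not tested.

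**Figure D3:**
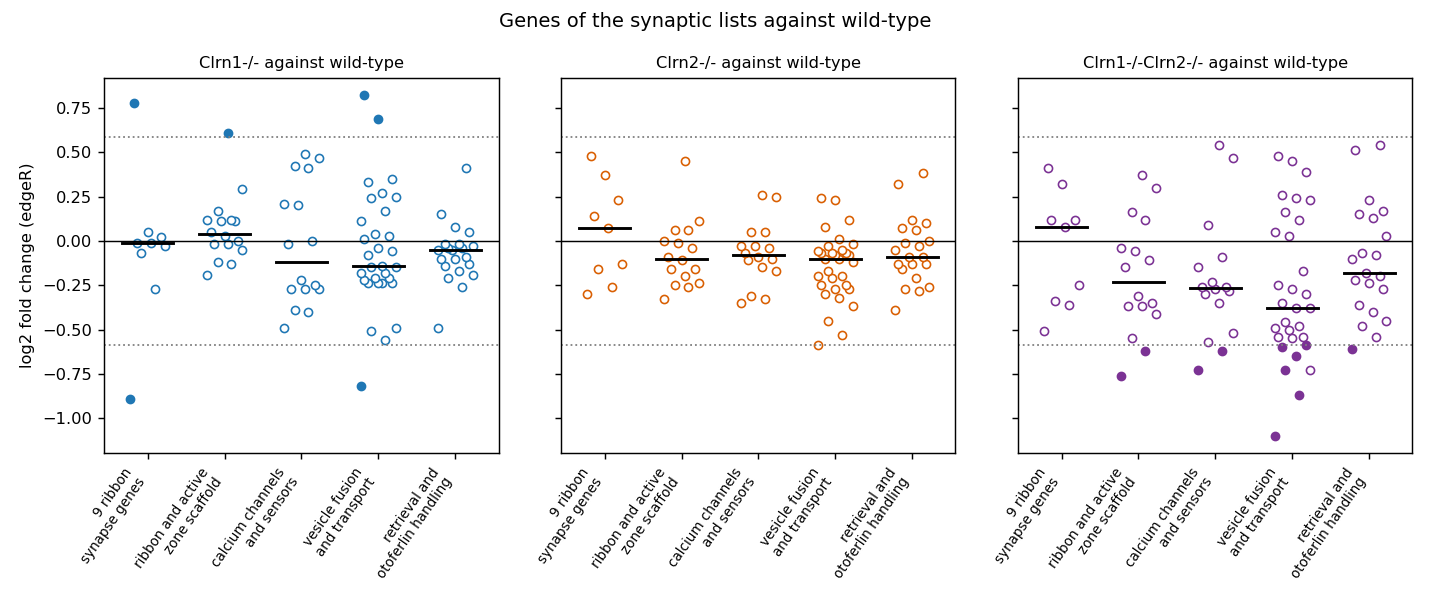
Each point is a gene of 1 list, with its log2 fold change against wild-type on the vertical axis and 1 panel per mutant. Filled points were called (adjusted p of at most 0.05 and at least 1.5-fold, dotted lines), and the black bar is the list's median. In the double mutant the medians of the 4 pathway lists lie between -0.38 and -0.18, and that of the 9 ribbon synapse genes at 0.08.

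The 9 genes fell into groups by how their levels varied over the 12 libraries, which share depth, scaling and the 4 genotypes. Otof, Cabp2 and Slc17a8 varied together, with Pearson's r of 0.81 for Otof and Cabp2, 0.83 for Otof and Slc17a8 and 0.67 for Cabp2 and Slc17a8. The same pairs gave 0.85, 0.83 and 0.59 for deviations from the genotype means, so these genes also moved together between libraries of 1 genotype. Marker sums moved with them within genotypes, with 0.8 for Otof, 0.67 for Slc17a8 and 0.93 for Cabp2 against the outer hair cell sum and 0.8, 0.8 and 0.7 against the supporting cell sum, and the part of the cell types in the dissected tissue was not tested. Cacnb2, Bsn, Pclo and Rims2 had correlations of 0.81 to 0.89 with each other. Within genotypes only Cacnb2 and Bsn kept a high value, 0.73, and the other pairs of these 4 lay between -0.25 and 0.28. Otof and Bsn varied in opposite directions, with -0.72 over all libraries and -0.63 within genotypes. The correlations of Cacna1d with the other 8 genes lay between -0.58 and 0.1 over the 12 libraries, and within genotypes it had 0.55 with Otof and 0.58 with Cabp2.

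**Figure D4:**
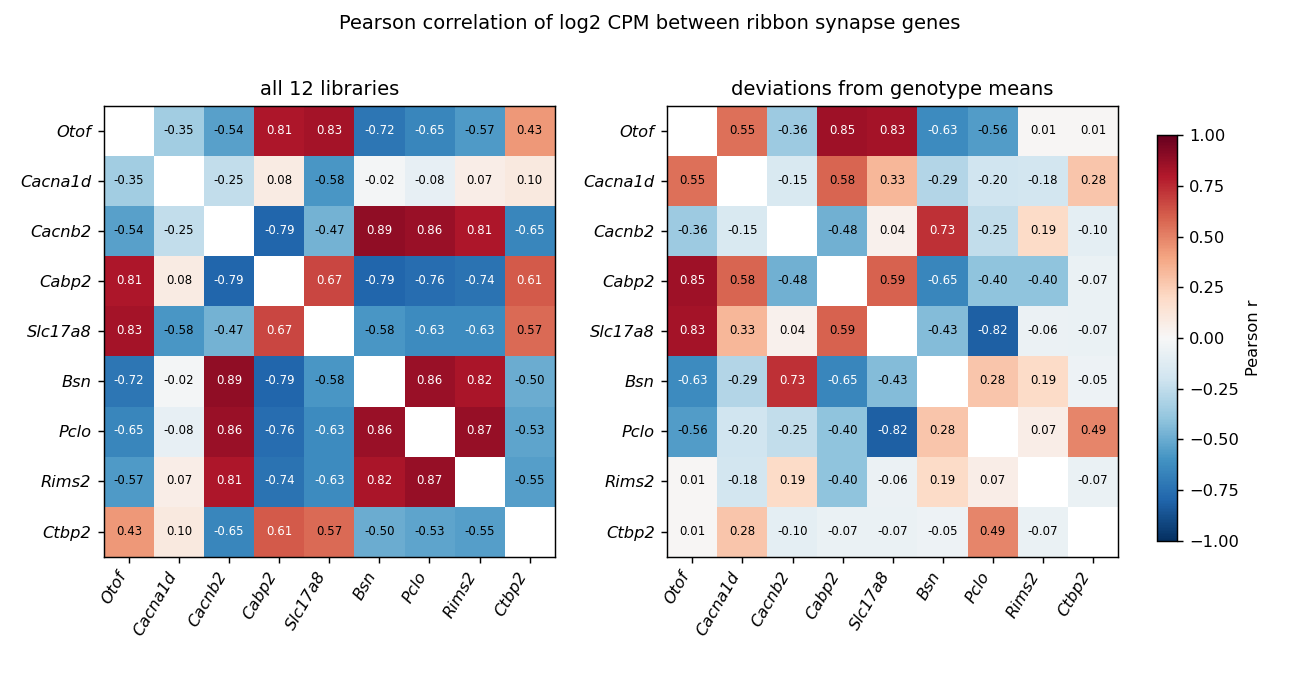
Pearson correlation of log2 CPM between the 9 genes, over all 12 libraries on the left and for deviations from the genotype means on the right, with red for positive and blue for negative values. Otof, Cabp2 and Slc17a8 are red with each other in both panels (0.59 to 0.85), and the block of Cacnb2, Bsn, Pclo and Rims2 is red on the left (0.81 to 0.89) and mostly pale on the right.

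Among 12452 genes whose mean reached 5 CPM, those whose pattern over the 12 libraries was most like that of Otof were Slf1, Eif3h and 2010300C02Rik with Pearson's r of 0.908, Atp2a3 with 0.898 and Gm11478 with 0.895. Within genotypes their correlations with Otof were 0.82 to 0.9. Atp2a3 is on the list of inner hair cell markers. For Slc17a8 they were Med8 with 0.983, Polr1d with 0.981, Rpl21 with 0.969, Snrpf with 0.967 and Hdac1 with 0.966, and within genotypes these ranged from 0.44 to 0.74. The likeness to Slc17a8 thus rested more on the genotype means than that to Otof.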

How the data were processed

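Poly-A RNA of P21 organs of Corti was sequenced as strand-specific paired reads. The deposited values are raw counts per gene, which the authors made with STAR on GRCm38.p6 (Gencode M24), without normalization, filters or pooling. The reverse-strand column, which holds 95.2% to 95.6% of stranded counts, was used. The totals of reads not on genes (13.5% to 15.8%) were left out. Genotypes and replicate numbers follow the labels.

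Counts were scaled by TMM and fitted over all 12 libraries and 19052 genes (edgeR 4.0.16, quasi-likelihood test, filterByExpr with a minimum count of 10, genotype as the only term, R 4.3.3). Alternatives used limma 3.58.1 (voom, the study's own test), DESeq2 1.42.0 and other settings. The fits were tested on simulated data. Confidence intervals are at 95%, SE is the log2 fold change divided by the root of F, and RPKM uses the union of exons in Gencode M21, which matched 53244 of 55348 genes. Correlations use log2 CPM (prior count 2).

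The members, lists and tests were chosen with earlier results of these data known. All 9 members are named in every comparison. Of each list up to 3 called genes per direction with the largest change are named, and for Otof and Slc17a8 the 5 most alike genes. Counts of replicates differed by more than sampling noise (chi-square per gene 4.47 to 19.36). Same-numbered libraries deviated together (over 0.1 in all 3 pairs) between wild-type and Clrn1-/- only, with correlations of 0.269, 0.126 and 0.105.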

Additional observations from a re-analysis of the deposited data

Results flagged for a closer look

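The change in Slc17a8 between genotypes with and without clarin-1 differed with the Clrn2 genotype, by a test of the difference itself. Slc17a8 changed by -0.89 on the log2 scale between wild-type and Clrn1-/-, and by -0.11 between Clrn2-/- and the double mutant, a difference of 0.78 (edgeR interaction, adjusted p = 0.000626).

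Cacna1d was flagged by the same test. It changed by 0.78 between wild-type and Clrn1-/- and by -0.07 between Clrn2-/- and the double mutant, a difference of -0.85 (edgeR interaction, adjusted p = 1.24e-06). With 3 libraries per genotype, single libraries were not tested as outliers.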

How the results depend on the processing

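The number of the 9 genes called was the same under limma-voom, DESeq2, library size alone, both other filters, only the genotypes compared, unstranded counts and the replicate block (2 for Clrn1-/- and 0 for the double mutant against wild-type, for example). With no fold minimum it was 4 for Clrn2-/- and 6 for the double mutant against wild-type, 7 for Clrn1-/- against Clrn2-/-, 8 for the double mutant against Clrn1-/- and 1 for the double mutant against Clrn2-/-. Leaving out each library gave the same counts of calls throughout, namely 2, 0 and 0 against wild-type, 1, 1 and 0 between mutants and 2 for the interaction.

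Counts at the adjusted p alone, an alternative added after seeing the data, moved more. For the double mutant against Clrn2-/- the count of 1 was 2 under DESeq2, no filter, the FPKM filter and the replicate block, and 0 to 2 with a library left out (0 without Clrn2-/- replicate 2). For the interaction the count of 2 was 4 with no filter and 4 with the replicate block (2 to 5 with a library left out, 5 without Clrn2-/- replicate 3), and for Clrn1-/- against Clrn2-/- it was 3 to 7. The replicate block changed no call at both thresholds.

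Some changes near 0 turned sign. Against wild-type in Clrn1-/-, library size alone gave 0.01 for Cabp2, 0.04 for Pclo and 0.04 for Ctbp2. With a library left out, values there ranged from -0.14 to 0.04 for Cabp2, -0.03 to 0.04 for Pclo, -0.02 to 0.02 for Ctbp2 and 0 to 0.07 for Bsn. Otof ranged from -0.06 to 0.17 both in Clrn2-/- against wild-type and in the double mutant against Clrn2-/-, where Cabp2 ranged from -0.16 to 0.07. The interaction ranged from -0.13 to 0.1 for Cabp2 and from -0.07 to 0.05 for Cacnb2. With library size alone the mean CPM of Ctbp2, Wild-type, was 26.4 against 26.9. The cause was not tested.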

Other observations

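Among 8 inner hair cell markers outside the 9 genes, 1 was called higher and 1 lower than wild-type in Clrn1-/-, 1 higher and 0 lower in Clrn2-/- and 1 higher and 2 lower in the double mutant, by edgeR. Those mentioned next were chosen after their values were seen. Dnajc5b, which encodes a vesicle-associated cochaperone, lay at 1.7 to 1.88 CPM in wild-type, 0.316 to 0.492 CPM in Clrn1-/-, 1.1 to 1.66 CPM in Clrn2-/- and 0.386 to 0.464 CPM in the double mutant. Its log2 fold change against wild-type was -2.11 in Clrn1-/- (edgeR adjusted p = 6.53e-06), -0.32 in Clrn2-/- (edgeR adjusted p = 0.296) and -2.03 in the double mutant (edgeR adjusted p = 3.66e-06). Fgf8, a growth factor gene of inner hair cells, was called higher in all 3 mutants, from 0 to 0.0759 CPM in wild-type to 0.569 to 1.25 CPM in Clrn1-/-, 0.765 to 1.15 CPM in Clrn2-/- and 1.44 to 1.57 CPM in the double mutant. Calb2 was the other marker called lower in the double mutant.

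Among 14 hair cell markers, 2 were called higher and 1 lower in Clrn1-/-, 4 higher and 0 lower in Clrn2-/- and 3 higher and 1 lower in the double mutant. The 1 called lower in both genotypes without clarin-1 was Gfi1, a transcription factor gene, with 5.68 to 8.63 CPM in wild-type, 3.54 to 3.95 CPM in Clrn1-/- (edgeR adjusted p = 0.000641), 4.76 to 6.94 CPM in Clrn2-/- (edgeR adjusted p = 0.171) and 4 to 5.11 CPM in the double mutant (edgeR adjusted p = 0.00304). Tmc1, a mechanotransduction channel gene, was called higher in all 3 mutants (log2 values of 0.63, 0.81 and 0.98), as was Rasd2 (1.63, 0.82 and 1.19). The others called higher were Xirp2 in Clrn2-/- (0.71) and the double mutant (0.83) and Loxhd1 in Clrn2-/- (0.59).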
